A study of Mus musculus with 8 samples.

Results

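The 44 genes described here encode subunits of chromatin complexes that write, read or remodel histone marks at developmental genes, or factors grouped with them. They were taken by symbol from a fixed list and make up 44 of the 54532 genes in the count table: 7 of Polycomb repressive complex 2 (PRC2), 11 of Polycomb repressive complex 1 (PRC1), 3 of the Polycomb deubiquitinase PR-DUB, 10 of the MLL/COMPASS group and 13 of SWI/SNF. RNA was sequenced from LSK cells, the lineage-negative, Sca-1-positive and c-Kit-positive bone marrow fraction that contains blood stem cells and early progenitors, of C57BL/6 mice. The 3 AML1/ETO libraries came from mice of genotype Runx1-Runx1t1, which carry the fusion made by the t(8;21) translocation of acute myeloid leukaemia, and the 5 control libraries from wild-type mice. Poly(I:C), synthetic double-stranded RNA that induces interferon, was given to both groups in 4 doses of 5 mg/kg, with sorting 4 weeks after. The labels name neither the promoter or Cre behind the allele nor separate animals for the libraries, so p-values reflect only how these libraries vary, which may be technical.

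PRC2 methylates lysine 27 of histone H3 through EZH2 or EZH1, and PRC1 ubiquitinates histone H2A and compacts chromatin; its CBX subunits bind methylated lysine 27. PR-DUB removes the ubiquitin again. MLL enzymes methylate lysine 4 of histone H3 and oppose Polycomb at genes such as the Hox clusters, while SWI/SNF complexes use ATP to move nucleosomes. Blood stem cells depend on BMI1 and MLL, and several of these genes (EZH2, ASXL1 and KMT2A among them) are mutated or rearranged in human myeloid leukaemia.

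Of the 44 genes, 6 differed between the groups at an adjusted p under 0.05 in edgeR's quasi-likelihood test over all genes. Ezh1 (ENSMUSG00000006920) and Cbx7 (ENSMUSG00000053411) rose, and Suz12 (ENSMUSG00000017548), Cbx2 (ENSMUSG00000025577), Smarcc1 (ENSMUSG00000032481) and Smarcd1 (ENSMUSG00000023018) fell. The promoters of 5 of them are printed because they are the members whose level moved and because Suz12 and Smarcd1, which fell, share the letters of an E2F site. RefSeq on GRCm38.p6 gave a promoter for 38 of the 44 genes, from 250 bases before to 50 after the start, on the gene's strand. Capitals mark TGCGGT (a RUNX site, here as its reverse complement ACCGCA) in Ezh1, TTTCCCGC (an E2F site) in Suz12 and Smarcd1, and CCGGAAG (an ETS site) in Smarcc1; Cbx7 held none of the motifs searched.
Ezh1, chr11:101226414-101226713, minus strand: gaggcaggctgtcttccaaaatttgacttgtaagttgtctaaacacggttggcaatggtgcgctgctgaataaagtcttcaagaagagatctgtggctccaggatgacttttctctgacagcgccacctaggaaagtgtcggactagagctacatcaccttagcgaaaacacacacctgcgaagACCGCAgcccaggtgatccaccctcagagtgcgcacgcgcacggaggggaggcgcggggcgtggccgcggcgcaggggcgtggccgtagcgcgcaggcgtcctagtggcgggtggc
Cbx7, chr15:79932597-79932896, minus strand: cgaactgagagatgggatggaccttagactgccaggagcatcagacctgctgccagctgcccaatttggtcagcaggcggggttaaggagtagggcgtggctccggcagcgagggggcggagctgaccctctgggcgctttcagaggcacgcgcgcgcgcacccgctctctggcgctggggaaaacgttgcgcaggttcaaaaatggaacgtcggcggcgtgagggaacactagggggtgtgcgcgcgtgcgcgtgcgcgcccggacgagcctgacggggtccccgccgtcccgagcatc
Suz12, chr11:79992856-79993155, plus strand: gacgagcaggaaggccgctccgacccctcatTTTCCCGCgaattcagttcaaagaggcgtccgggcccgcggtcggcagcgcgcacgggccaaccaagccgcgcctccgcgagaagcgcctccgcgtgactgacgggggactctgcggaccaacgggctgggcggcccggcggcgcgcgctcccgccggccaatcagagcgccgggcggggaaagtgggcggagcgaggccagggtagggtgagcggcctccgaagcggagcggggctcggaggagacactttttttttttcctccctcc
Smarcc1, chr9:110131774-110132073, plus strand: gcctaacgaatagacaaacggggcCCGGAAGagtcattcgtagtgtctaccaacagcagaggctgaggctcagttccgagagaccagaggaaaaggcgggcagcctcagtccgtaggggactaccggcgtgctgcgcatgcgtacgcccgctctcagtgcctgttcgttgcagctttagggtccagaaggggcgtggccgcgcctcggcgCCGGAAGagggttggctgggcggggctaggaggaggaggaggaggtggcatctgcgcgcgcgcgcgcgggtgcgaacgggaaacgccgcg
Smarcd1, chr15:99702037-99702336, plus strand: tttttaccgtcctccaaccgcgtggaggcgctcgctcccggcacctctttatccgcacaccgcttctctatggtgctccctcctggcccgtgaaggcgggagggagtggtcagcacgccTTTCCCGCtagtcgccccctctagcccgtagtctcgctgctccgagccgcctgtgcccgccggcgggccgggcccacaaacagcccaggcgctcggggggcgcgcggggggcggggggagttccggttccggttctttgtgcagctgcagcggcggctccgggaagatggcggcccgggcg

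Motifs were searched on both strands as exact letters: TGTGGT and TGCGGT for RUNX, TTTCCCGC or TTTGGCGC for E2F, TGANTCA for AP-1 and CCGGAAG for ETS. TGTGGT was in the promoter of 7 of the 38 genes and of 15.6% of tested genes with a promoter, and TGCGGT in 4 of 38 against 10.9%. None of the 7 genes with TGTGGT (Arid1b, Asxl1, Asxl2, Ezh2, Jarid2, Pcgf6 and Wdr5) passed the threshold. The E2F letters were in 5 of 38 (Arid1a, Ezh2, Phf19, Smarcd1 and Suz12) against 3.46%, and 3 of these 5 did not pass the threshold. ETS letters were in 7 of 38 against 19.8% and AP-1 letters in 2 of 38 against 6.32%. Over all 32851 promoters in the RefSeq table, whatever the gene, the shares were 16.8% for TGTGGT, 6.45% for TGCGGT, 1.57% for E2F, 8.86% for ETS and 7.81% for AP-1. The promoters of the members had a median of 30 CpG and 66% GC, against 7 CpG and 52.7% GC over all promoters, whatever the gene. For CpG and GC, no comparison with the promoters of tested genes alone is given. These counts describe letters only.

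Library totals ran from 14693080 to 17527043 reads. The fusion partner Runx1t1 was at 53.9, 123 and 105 CPM (reads scaled to a common library size with TMM factors) in AML1/ETO and at 1.58 to 7.69 in controls, so it went with the labels. Library 1 of each group stood apart from the other 6 libraries on the second principal component (14.3% of the variance; the first, 44%, separated the groups). Values without one or both of them are given for Suz12, Cbx2, Kmt2a, Kmt2c, Kmt2e, Dot1l and Kdm6b. The groups also differed in Xist, at 28559 to 33151 reads in AML1/ETO and 0 to 111 in controls. Reads of 4 Y-linked genes were 0 in each AML1/ETO library and present in every control. Sex, as read from these genes, thus went with genotype, and sex and genotype cannot be told apart here for any gene. None of the 44 genes is on X or Y. Markers of cell cycle and of several blood lineages moved with the groups too. Of 21 proliferation genes 17 fell, with Mki67, Rrm1, Mcm5 and Mcm7 of smallest p, and their summed level was 1160 to 2044 CPM in AML1/ETO against 3456 to 4026. Of 10 mast cell markers, 8 were tested and 7 rose, to a sum of 4512 to 9416 CPM against 909 to 1001. B cell markers summed to 5.30 to 10.8 against 77.5 to 245 CPM, with 7 of 9 lacking reads throughout AML1/ETO, 1 of which (Ms4a1) also lacked them in every control, and T and NK markers to 5.22 to 7.59 against 64.0 to 118. Of these 8 genes 6 had no reads in AML1/ETO, and 4 of the 6 (Cd3e, Cd3d, Cd3g and Cd8a) had none in controls either. Neutrophil markers summed to 0.0654 to 61.4 against 118 to 283 and macrophage markers to 39.96 to 59.9 against 139 to 253 CPM. Erythroid markers overlapped (81.6 to 128 against 88.1 to 170), as did megakaryocyte markers (297 to 735 against 255 to 420). Each of 9 markers of the LSK gate and of stem cells had reads in every library, and they summed to 2940 to 4426 against 1513 to 1871 CPM; 7 rose and 1, Mecom, fell, at 10.9 to 11.8 CPM against 42.0 to 90.7. Kit was at 913 to 1697 CPM in AML1/ETO and 378 to 469 in controls, and Ly6a, which encodes Sca-1, was low in the controls of this Sca-1 gate, at 8.31 to 23.4 CPM against 221 to 921. The part of these differences in the results below was not tested. In bulk RNA, fewer cells of a type and less RNA per cell cannot be told apart.

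All 44 genes had reads and were tested. The fitted change was below 2-fold for 40 of them, the median log2 fold change (AML1/ETO minus control) was 0.03 and the median size of the change was 0.34. The same medians over all 15009 genes tested were -0.09 and 0.73. The 6 called members are 13.6% of 44, where 25.7% of all tested genes were called (11.6% higher and 14.2% lower). Where the mean level reached 20 CPM, 6 of 39 members (15.4%) and 38.9% of all genes were called. The libraries of the groups did not overlap in CPM for 13 of the 44 members, 3 higher and 10 lower, against 31.6% of all genes. At an unadjusted p under 0.05 there were 15 of 44 members, against 38.0% of all tested genes. Of the 38 members that were not called, 30 had a 95% interval of the log2 fold change that lay within 1 on either side of 0. The other 8, for which a change of 2-fold or more lay inside the interval, were Pcgf1, Pcgf6, Cbx8, Phc1, Kmt2d, Kmt2e, Dot1l and Smarcd3. Scaling by library totals alone moved the median of all genes by -0.15 and the calls over all genes from 1734 risen and 2128 fallen to 1407 and 2712; among the members it gave 2 risen and 9 fallen.

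**Figure D1:**
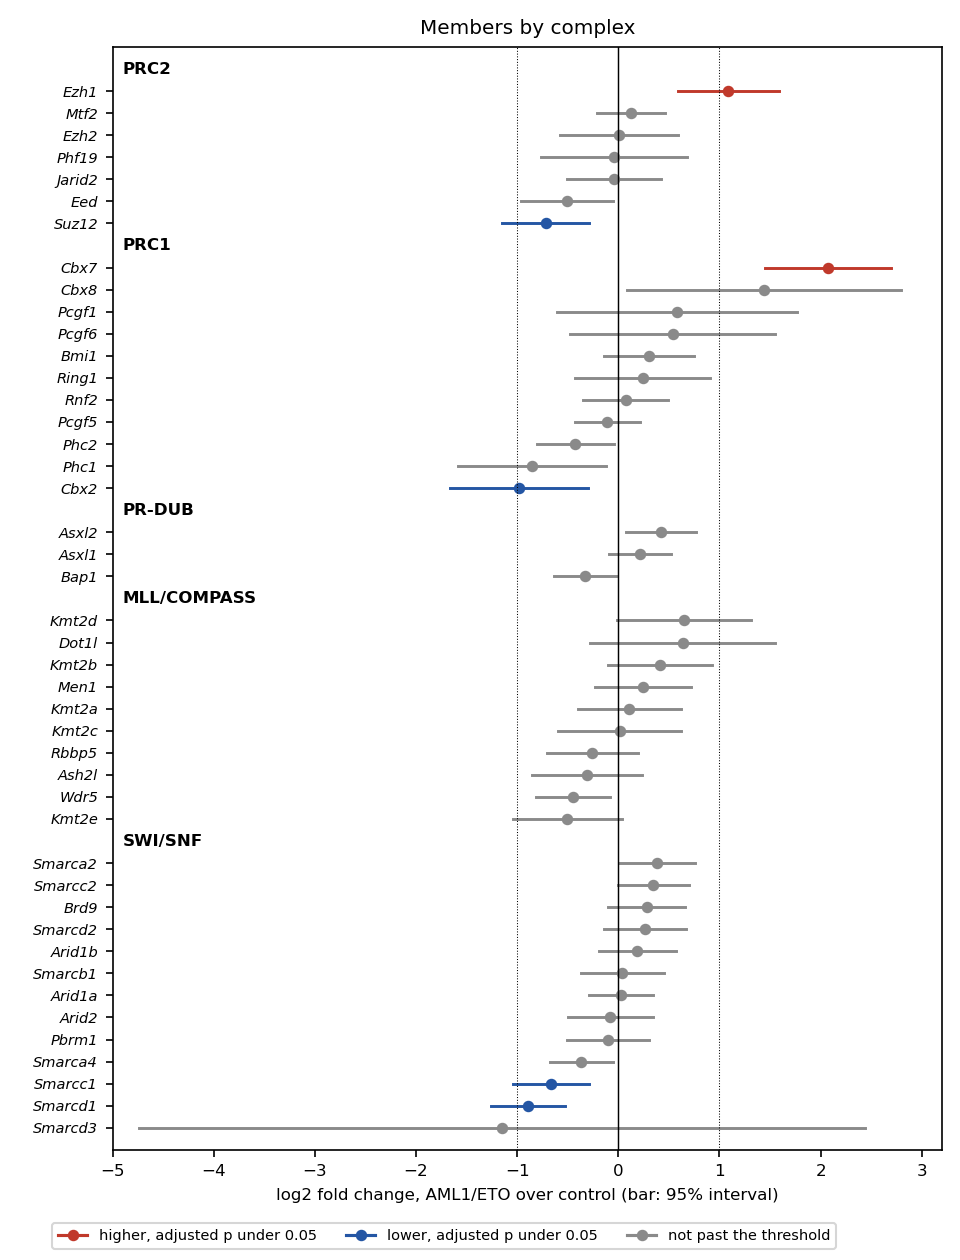
Log2 fold change of each of the 44 genes (x axis, AML1/ETO over control, edgeR) with its 95% interval as a bar, grouped by complex; dotted lines mark a 2-fold change. Red marks the 2 genes that rose, blue the 4 that fell, and grey the 38 not past the threshold.

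In PRC2, 1 of 7 genes rose and 1 fell, and the median log2 fold change was -0.04. Ezh1, the less active methyltransferase that is typical of non-dividing cells, rose. It was at 116, 127 and 78.2 CPM in AML1/ETO libraries 1 to 3 and at 63.7, 62.0, 41.9, 44.7 and 39.5 in controls 1 to 5. Every AML1/ETO library lay above every control, and the means were 107 ± 25.7 (SD, n = 3) and 50.3 ± 11.6 (SD, n = 5). The log2 fold change was 1.09 (SE 0.23, edgeR adjusted p = 0.0046). Ezh2, the methyltransferase of dividing cells, did not pass the threshold. Its libraries held 45.4, 73.2 and 60.4 CPM in AML1/ETO and 38.2, 50.6, 80.7, 52.8 and 75.3 in controls, so the controls spanned the AML1/ETO range (log2 fold change 0.00, 95% interval -0.58 to 0.59). Ezh2 is a target of E2F factors that usually follows proliferation, and the proliferation genes given above were lower in AML1/ETO. A link between Ezh2 and proliferation in these libraries was not tested.

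Suz12, the scaffold without which PRC2 is unstable, fell. AML1/ETO libraries held 70.9, 127 and 106 CPM and controls 154, 180, 162, 150 and 189. The groups did not overlap, and AML1/ETO library 1 was the lowest. The log2 fold change was -0.72 (SE 0.20, edgeR adjusted p = 0.0194). Leaving out control library 2 or 5 raised the adjusted p to 0.0555 or 0.0544; Suz12 was still called without both first libraries. Eed, the subunit that binds the methylated histone, was lower without overlap, at 80.1, 81.0 and 48.0 CPM against 85.9 to 113 with a median of 99.1, but missed the threshold (log2 fold change -0.51, edgeR adjusted p = 0.093). It passed only with library totals alone (adjusted p = 0.0369). Of the accessory subunits, Mtf2 was at 167 to 231 CPM in AML1/ETO and 163 to 182 in controls, Jarid2 at 74.6 to 109 and 76.4 to 127, and Phf19 at 11.9 to 21.2 and 13.5 to 20.7. Their log2 fold changes of 0.12, -0.04 and -0.04 did not pass the threshold. The 4 core genes summed to 293 to 408 CPM in AML1/ETO and 360 to 403 in controls.

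In PRC1, 1 of 11 genes rose and 1 fell, both CBX readers, and the median log2 fold change was 0.24. Cbx7 is the CBX protein that in mouse blood stem cells favours self-renewal. It was at 128, 63.1 and 112 CPM in AML1/ETO and at 18.9, 34.1, 29.0, 17.9 and 20.1 in controls. The lowest AML1/ETO library was above the highest control, and the means of 101 ± 34.0 (SD, n = 3) and 24.0 ± 7.15 (SD, n = 5) were 4.22-fold apart. The log2 fold change of 2.08 (SE 0.29, edgeR adjusted p = 0.000324) was the largest among the 44 genes in either direction. Cbx2, a CBX protein with strong chromatin-compacting activity, fell: 11.4, 12.6 and 16.2 CPM in AML1/ETO against 24.0, 24.1, 35.6, 29.9 and 18.8 in controls. The groups were separate, with control library 5 the lowest control. The log2 fold change was -0.98 (SE 0.31, edgeR adjusted p = 0.038). This call was the least firm of the 6: it was lost in 10 of 16 alternatives. Without AML1/ETO library 1 or 2 the adjusted p was 0.0886 or 0.0873, without control library 2, 3 or 4 it was 0.0751, 0.107 or 0.0938, and without both first libraries it was 0.0822.

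Cbx8, another CBX reader, lies beside Cbx2 on chromosome 11 (119036305 to 119040969, minus strand, and 119022962 to 119031270, plus strand, GRCm38). It did not follow it: Cbx8 was at 8.86, 13.8 and 8.50 CPM in AML1/ETO and 5.50, 6.04, 2.04, 2.15 and 3.39 in controls. Its groups did not overlap, but with 37 to 221 reads a library the difference missed the threshold (log2 fold change 1.44, 95% interval 0.08 to 2.80, edgeR adjusted p = 0.11). DESeq2 called it (adjusted p = 0.0469). To compare these 3 CBX genes with each other, CPM was divided by exon length in kb and set against the sum of Cbx2, Cbx7 and Cbx8. Cbx7 was then 79.6%, 59.1% and 73.9% of the sum in AML1/ETO and 26.6% to 41.8% in controls. Cbx2 was 10.7%, 18.02% and 16.2% against 45.1% to 67.8%. The share of Cbx8 overlapped between the groups, at 9.70% to 22.8% and 4.14% to 14.9%. On this scale Cbx2 was above Cbx7 in each of the 5 controls and below it in each of the 3 AML1/ETO libraries.

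**Figure D2:**
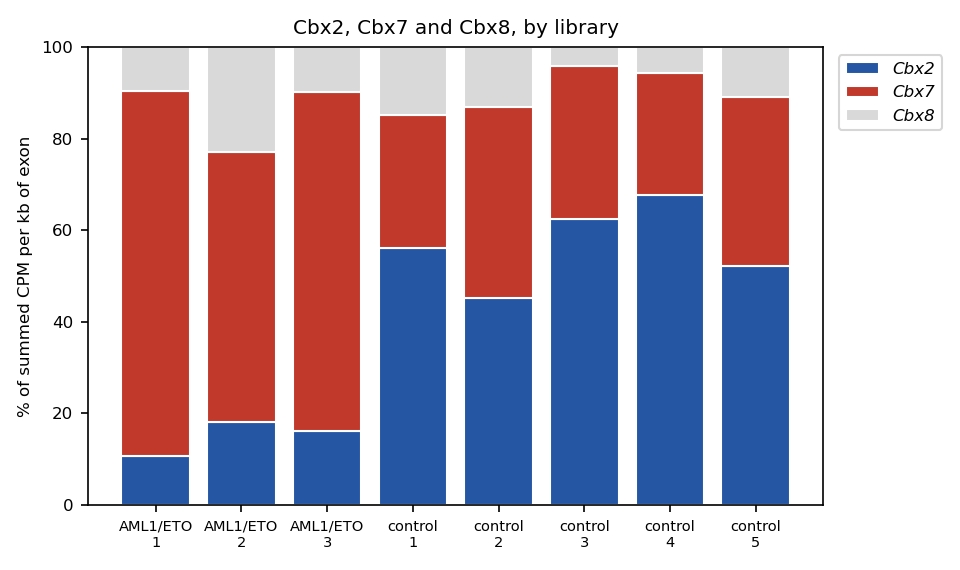
Share of Cbx2, Cbx7 and Cbx8 in their summed CPM per kb of exon (y axis, percent), 1 bar per library. The red segment, Cbx7, is 59.1% to 79.6% for AML1/ETO (3 bars) and 26.6% to 41.8% for control (5 bars), and the blue segment, Cbx2, is smaller in each AML1/ETO library than in any control.

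The catalytic and PCGF subunits of PRC1 did not pass the threshold. Rnf2 (RING1B), its main ubiquitin ligase, was at 111, 109 and 88.6 CPM in AML1/ETO and 67.5 to 116 in controls, and its paralogue Ring1 at 22.9 to 49.7 and 21.0 to 42.5. Bmi1, which blood stem cells need for self-renewal, was at 85.6, 75.4 and 61.9 CPM in AML1/ETO and at 49.97 to 80.4 with a median of 55.9 in controls (log2 fold change 0.30, 95% interval -0.14 to 0.75). Pcgf5 was at 119 to 148 and 129 to 148 CPM. Pcgf1 and Pcgf6, which belong to variant PRC1, were low and varied, at 8.25 to 12.3 and 7.72 to 30.6 CPM in AML1/ETO. Pcgf6 was highest in AML1/ETO library 2, and its log2 fold change of 0.54 turned to -0.27 without that library. The Polyhomeotic genes Phc1 and Phc2, whose proteins cluster PRC1, were both lower without overlap and neither passed. Phc1 was at 36.5, 70.4 and 18.9 CPM against 71.5 to 84.7 (log2 fold change -0.85, edgeR adjusted p = 0.0826). Leaving out AML1/ETO library 2 gave -1.46 and an adjusted p of 0.00283. Phc1 was also called by limma-voom (log2 fold change -1.09, limma-voom adjusted p = 0.022). Phc2 was at 112, 104 and 86.5 CPM against 115 to 171 (log2 fold change -0.43, edgeR adjusted p = 0.0964). It passed only with library totals alone (edgeR adjusted p = 0.0303).

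Of PR-DUB, none of 3 genes passed in edgeR, while 2 had an unadjusted p under 0.05; DESeq2 called 1, Asxl2, and limma-voom none. Asxl1, a cofactor of the deubiquitinase that is often mutated in myeloid disease, was at 265, 237 and 216 CPM in AML1/ETO and 192 to 234 in controls. Asxl2, its paralogue, was at 190, 168 and 132 against 117 to 137 (log2 fold change 0.42, edgeR adjusted p = 0.0698). Leaving out control library 1, the highest control, or AML1/ETO library 3 brought the adjusted p to 0.0472 or 0.0368. Bap1, the enzyme, was lower without overlap at 170, 162 and 154 CPM against 188 to 232 and missed the threshold (log2 fold change -0.33, edgeR adjusted p = 0.11).

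**Figure D3:**
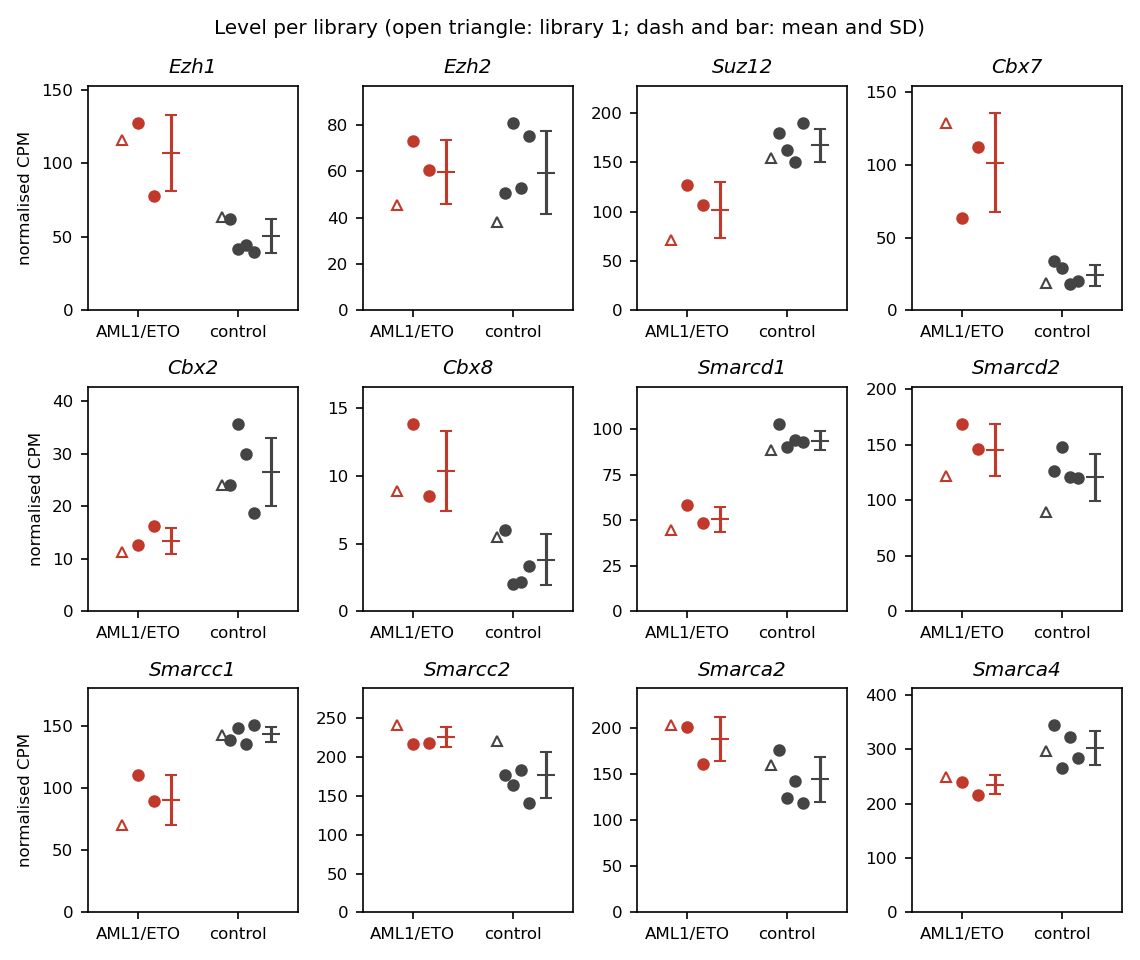
Normalised CPM (y axis, from 0) of 12 members in each library, AML1/ETO in red and control in grey, with library 1 of each group as an open triangle and the mean with its SD beside the points. Ezh1 and Cbx7 are higher and Suz12, Cbx2, Smarcd1, Smarcc1 and Smarca4 lower in every AML1/ETO library than in every control, and the points of Ezh2 overlap.

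None of the 10 MLL/COMPASS genes passed in edgeR, and 1, Wdr5, had an unadjusted p under 0.05; limma-voom called Kmt2e and DESeq2 none. The median log2 fold change was 0.06. Kmt2a, the MLL1 gene that leukaemia translocations break, was at 563, 400 and 365 CPM in AML1/ETO and 548, 486, 266, 415 and 340 in controls (log2 fold change 0.11, 95% interval -0.40 to 0.62). Kmt2b was at 242 to 414 and 177 to 326, and Kmt2c at 153 to 389 and 181 to 312. Without AML1/ETO library 1 the log2 fold change of Kmt2a turned to -0.11 and that of Kmt2c went from 0.01 to -0.41, neither past the threshold. Kmt2d was at 747, 304 and 577 against 213 to 509 and passed only without AML1/ETO library 2 (log2 fold change 0.93, adjusted p = 0.0287). Kmt2e was at 370, 171 and 214 CPM against 256 to 420 with a median of 369. Its log2 fold change was -0.50 with all libraries (edgeR adjusted p = 0.154), -0.90 without AML1/ETO library 1 (0.00561) and -0.83 without both first libraries (0.0119).

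Among the subunits that the MLL complexes share, Wdr5 was at 104, 140 and 161 CPM against 168 to 198, lower without overlap, and missed the threshold (log2 fold change -0.45, edgeR adjusted p = 0.0688). Leaving out AML1/ETO library 3 gave an adjusted p of 0.0381. Ash2l was at 55.8, 105 and 49.1 CPM against 74.4 to 102 and passed when AML1/ETO library 2 was left out (log2 fold change -0.74, adjusted p = 0.0241). Rbbp5 was at 41.6 to 54.3 and 45.4 to 68.2, and Men1, which encodes menin, at 54.0 to 69.1 and 33.6 to 58.3. Dot1l, the lysine 79 methyltransferase that MLL fusions recruit, was at 1812, 381 and 511 CPM in AML1/ETO and 813, 696, 412, 505 and 478 in controls. A single library, AML1/ETO 1, set its mean of 902 ± 791 (SD, n = 3) against 581 ± 167 (SD, n = 5); the log2 fold change of 0.63 had a 95% interval of -0.28 to 1.55. The direction turned without that library, to -0.39, and was -0.23 without both first libraries; none of these passed the threshold. Per kb of exon Dot1l had the highest level of the 44 genes in controls, 66.7 CPM per kb, and Smarcd3 the lowest, 0.726.

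In SWI/SNF, 2 of 13 genes fell and the median log2 fold change was 0.03; none rose in edgeR, DESeq2 or limma-voom, and 1, Smarca2, was higher at an unadjusted p under 0.05. Smarcd1, which encodes BAF60A, fell with little spread: 44.8, 58.2 and 48.9 CPM in AML1/ETO and 89.0, 103, 90.4, 94.0 and 93.3 in controls. The groups stood well apart, at 50.6 ± 6.91 (SD, n = 3) and 93.9 ± 5.40 (SD, n = 5), with a log2 fold change of -0.89 (SE 0.17, edgeR adjusted p = 0.00241). Of its exon bases 12.7% overlap the opposite-strand gene models Gm17349 and Gm34939, and strand use in counting was not given in the sources used here. Smarcc1 (BAF155), a core scaffold, fell from 143 ± 6.24 (SD, n = 5) to 90.4 ± 20.01 CPM (SD, n = 3). Its libraries held 70.7, 111 and 89.7 CPM against 142, 139, 149, 136 and 151, without overlap (log2 fold change -0.66, edgeR adjusted p = 0.0139).

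The ATPase Smarca4 (BRG1) was lower without overlap, at 249.4, 239 and 216 CPM against 265 to 344, and missed the threshold (log2 fold change -0.37, edgeR adjusted p = 0.0815). The alternative ATPase Smarca2 (BRM) was at 203, 201 and 161 CPM against 119 to 176 and overlapped (log2 fold change 0.38, edgeR adjusted p = 0.125). Smarcc2 (BAF170), the paralogue of Smarcc1, was at 241, 217 and 218 CPM against 140 to 221; it passed only without control library 1 (log2 fold change 0.47, adjusted p = 0.0489). Smarcd2, the BAF60 subunit needed for granulocyte formation, was at 121 to 168 and 89.0 to 148. The third BAF60 gene, Smarcd3, had 0, 80 and 0 reads in AML1/ETO and 16 to 88 in controls, and 50.1% of its exon bases overlap Chpf2 or Mir671 on the other strand. Without AML1/ETO library 2, where it had its only reads in that group, its adjusted p was 0.0124 rather than 0.685, so its call depends on that library.

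The subunits that define the separate SWI/SNF assemblies did not pass the threshold. Arid1a, the BAF subunit most often mutated in cancer, was at 444, 467 and 433 CPM in AML1/ETO and 347 to 491 in controls (log2 fold change 0.03, 95% interval -0.29 to 0.35). Arid1b, its paralogue, was at 204 to 309 and 182 to 245. Of the PBAF form, Arid2 was at 183 to 281 and 191 to 267, and Pbrm1 at 99.7 to 164 and 112 to 148. Smarcb1, the core tumour suppressor subunit, was at 53.4 to 79.1 and 53.0 to 68.3, and Brd9, of the non-canonical complex, at 91.5 to 108 and 64.3 to 97.7.

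Ratios of related subunits within a library do not depend on scaling, and 16 pairs were compared by a two-sided exact permutation test. In 6 of the 16 pairs the groups did not overlap. Each of the 6 had an exact permutation p of 0.0357, the smallest that 3 against 5 libraries allow, and 0.0952 after adjustment over the 16 pairs. No pair passed 0.05, but with that floor full separation in only 6 of 16 pairs could not pass, so the adjusted values decide nothing. Cbx7/Cbx2, Smarcd1/Smarcd2 and Smarcc1/Smarcc2 include members already called. No share without overlap is given for other gene pairs, while for single genes tested it was 31.6%. The widest gap was in Cbx7/Cbx2, where the log2 read ratio was 3.49, 2.32 and 2.79 in AML1/ETO and -0.74 to 0.50 in controls. Smarcd1/Smarcd2 was -1.44, -1.53 and -1.58 against -0.71 to 0.00, and Smarcc1/Smarcc2 was -1.77, -0.97 and -1.28 against -0.63 to 0.10. The Smarcd1/Smarcd2 and Smarcc1/Smarcc2 ratios moved towards the second gene of the pair, and Cbx7/Cbx2 towards the first. Smarca2/Smarca4 was -0.30, -0.25 and -0.43 against -1.25 to -0.89. Per kb of exon, Smarca2 was 26.6% of the ATPase pair in AML1/ETO and 17.7% in controls. Kmt2c/Kmt2d was -0.94, -0.9975 and -1.30 against -0.74 to -0.23. Asxl1/Asxl2 differed by only -0.19 (AML1/ETO 0.48 to 0.70, controls 0.71 to 0.77). Ezh1/Ezh2 overlapped: 1.35, 0.80 and 0.37 in AML1/ETO and 0.74, 0.29, -0.95, -0.24 and -0.93 in controls (difference 1.06, exact permutation p = 0.0714, adjusted 0.163). Both control libraries 3 and 5, where Ezh2 was highest, had the lowest ratios.

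**Figure D4:**
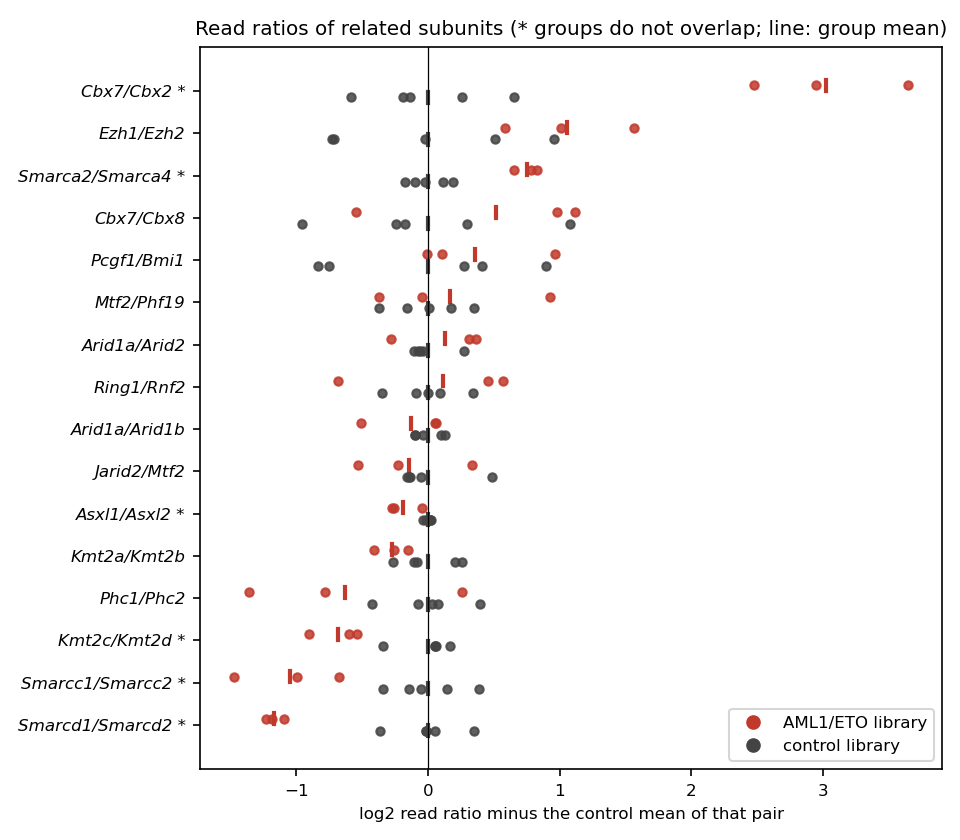
Log2 ratio of reads of the first to the second gene of each pair, minus the control mean of that pair (x axis), 1 point per library, with a short line at each group mean. The 6 starred pairs do not overlap between the groups, and Cbx7/Cbx2 at the top is shifted furthest, by 3.02.

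Other subunits and partners of these complexes, outside the 44, were also counted. Of 24 other Polycomb genes tested, 3 rose and 9 fell (50% called, median log2 fold change -0.19). Over all tested genes 25.7% were called, and 38.9% of those with a mean of 20 CPM or more. Phf1, a PRC2 accessory protein related to Mtf2 and Phf19, was at 101, 80.9 and 126 CPM in AML1/ETO and 16.2 to 38.2 in controls (log2 fold change 2.06, edgeR adjusted p = 0.000256); 43.8% of its exon bases overlap Cuta or AC144621.3 on the other strand, whose reads cannot be told apart without strand. Aebp2, an accessory subunit of the alternative PRC2 form with Jarid2, was at 57.4, 86.7 and 59.8 against 143 to 178 (-1.22, adjusted p = 0.000557). Bcor, a PRC1.1 subunit on the X chromosome, was at 234, 241 and 162 against 424 to 569 (-1.176), and Mbd6, a PR-DUB partner, at 287, 489 and 498 against 157 to 212 (1.181). All of these groups were separate.

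Of 16 other MLL/COMPASS genes tested, 2 rose and 5 fell (43.8% called, median -0.42). Psip1, whose protein LEDGF tethers MLL to chromatin, was at 26.6, 66.0 and 53.8 CPM against 92.2 to 128 (log2 fold change -1.27, edgeR adjusted p = 0.00479); 9.50% of its exon bases overlap Snapc3 on the other strand. Hcfc1, on X, was at 238 to 402 against 459 to 746 (-0.97), and Dpy30, a shared core subunit, at 8.18 to 8.89 against 11.2 to 32.9 (-1.50). The Dpy30 call was lost without control library 3 or 5. Kdm6a, the lysine 27 demethylase of the KMT2C and KMT2D complexes, was higher, at 201 to 219 against 114 to 141 (0.67); it is X-linked and escapes X inactivation in mice, and the groups differ in Xist; the part of X dosage was not tested. Of 13 other SWI/SNF genes tested, 1 rose and 4 fell (38.5% called, median -0.08). Actl6a (BAF53A), the actin-like subunit of progenitor cells, whose exons overlap opposite-strand Mrpl47 over 11.6% of their bases, was at 44.5, 58.9 and 47.5 CPM against 75.6 to 117 (-0.91), and Smarce1 (BAF57) at 129, 129 and 108 against 177 to 206 (-0.62). Bicra was higher (0.85) and Bcl11a lower (-0.56); without AML1/ETO library 1 or 2 neither was called.

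Of 7 histone demethylases counted beside these enzymes, 2 rose and 1 fell (42.9% called, against 25.7% of all tested genes). Kdm6b, which removes lysine 27 methylation, was at 2370, 743 and 881 CPM in AML1/ETO and 223 to 389 in controls (log2 fold change 1.99, edgeR adjusted p = 0.000959). AML1/ETO library 1 was the highest, as for Dot1l, and the others were also above every control; the log2 fold change was 1.27 without library 1 and 1.33 without both first libraries (adjusted p = 0.000474 and 0.00119). Kdm1a (LSD1) was at 161, 129 and 138 against 195 to 258 (-0.69). Kdm5b had an adjusted p of 0.0479 and lost its call in 8 of 16 alternatives. Of 14 textbook Polycomb and MLL target genes, 11 were tested, 3 rose and 5 fell (72.7% of those tested). Meis1 was at 145, 159 and 191 CPM against 59.5 to 89.8 (1.07, with 18.3% of exon bases in overlapping gene models) and Hmga2 at 94.0, 186 and 115 against 23.7 to 55.5 (1.64). Hoxa10 was at 0, 0 and 1.11 CPM against 12.8 to 33.7, and Ebf1, which is also a B cell marker, at 0 reads in every AML1/ETO library against 1.69 to 7.26. Cdkn2a, the Bmi1 target that halts the cell cycle, was chosen after its values were seen: it had reads only in AML1/ETO library 3, at 2.09 CPM, and was not tested.

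Library 1 of each group differed from the other libraries in the long genes among the members. All 5 Kmt2 genes were higher in library 1 than the mean of the other libraries of their group, in AML1/ETO (median log2 excess 0.77) and in controls (0.54). Dot1l had the largest excess in AML1/ETO library 1, 2.02, and an excess of 0.64 in control library 1. Over the 44 genes the excess went with exon length, with a Spearman rho of 0.584 in AML1/ETO library 1 and 0.449 in control library 1; over 15002 genes the rho was 0.134 and 0.108, and over the 7576 genes with a mean level of at least 20 CPM it was 0.268 and 0.151. These correlations are across genes that share a library and are given as a description. The log2 fold change between the groups had a rho of 0.105 with exon length over the members. The part of transcript length in the Kmt2 and Dot1l values was not tested further. Without both first libraries 2 members rose and 4 fell, as with all 8: Cbx2 was no longer called and Kmt2e was.

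**Figure D5:**
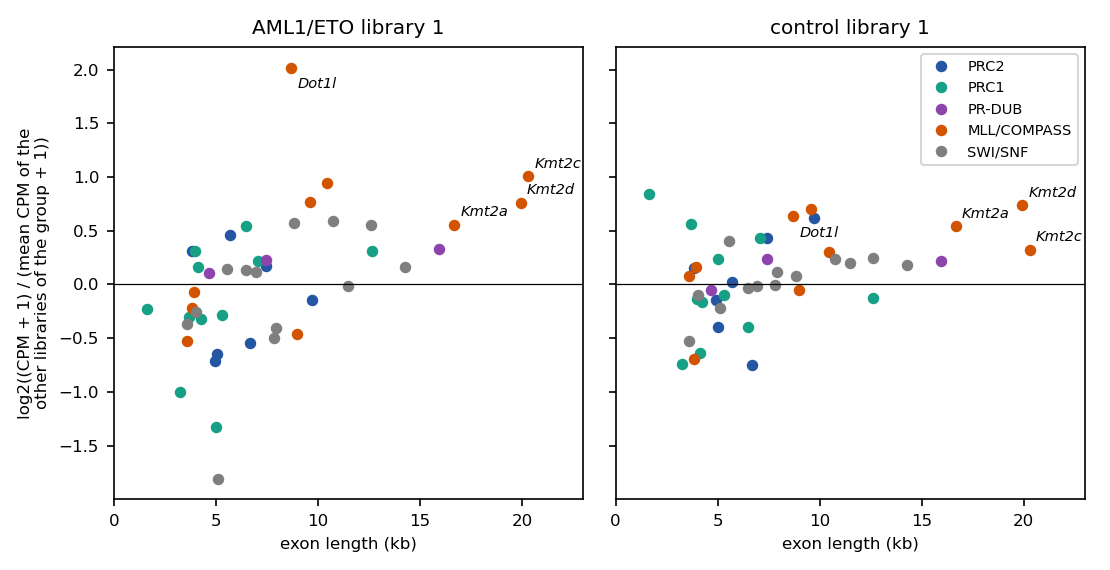
Log2 excess of library 1 over the mean of the other libraries of its group (y axis) against exon length in kb (x axis) for the 44 genes, AML1/ETO on the left and control on the right, coloured by complex. The long Kmt2 genes lie above 0 in both panels, and Dot1l reaches 2.02 in AML1/ETO library 1.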

How the data were processed

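The authors deposited raw read counts for each Ensembl gene in each library, unpooled; libraries were made from total RNA with a NEBNext Ultra kit, per the labels' protocols. Alignment tools named in the submitters' processing notes are featureCounts 1.5.0-p3 and HISAT2 2.0.5, with mm10 as the build. The annotation release, strand setting and handling of multiply aligned reads, which decide how overlapping genes and near-identical copies share reads, were not given in the sources used here. Of 54532 identifiers, 54495 matched GENCODE M21 (GRCm38), which gave coordinates and exon lengths.

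The test was edgeR 4.0.16 under R 4.3.3 on the counts (filterByExpr, which left 15009 genes, TMM, glmQLFit and glmQLFTest, two-sided, Benjamini-Hochberg over all genes, threshold 0.05) over all 8 libraries with no covariate; errors and intervals come from the quasi-likelihood F statistic. Ratios used reads plus 0.5 and all 56 assignments of 3 libraries. Library totals were 14693080 to 17527043 reads. On simulated counts for the 15009 genes 18% of 2-fold, 48% of 4-fold, 60% of 8-fold and 62% of 16-fold changes were found, and false calls made up 4.08%. The simulation changed only 50 genes per fold and gave 98 calls, against 3862 in the data. The adjusted threshold was therefore stricter there. These shares do not measure how often a change in the members would be found. Alternatives were DESeq2 1.42.0, limma-voom (limma 3.58.1), other scalings and filters, a replicate block and each library left out; leaving out both first libraries was chosen after seeing the data. All 44 members are accounted for; of other lists, up to 4 genes with the smallest p past the threshold are named. The members and lists were chosen with earlier results of these data known.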

Additional observations from a re-analysis of the deposited data

Results flagged for a closer look

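Among the 44 members, the control group of 5 libraries held an outlying library in 4 by Dixon's test, where chance flags about 1 in 20 groups. The 44 genes share the same 5 libraries, and no share over all tested genes is given, so the count is not shown to be particular to the members. Control library 1 was the outlying value in 3 of the 4. Jarid2 was at 127.3 CPM in control library 1, with the nearest control at 91.0. Asxl1 was at 233.9 CPM there, with the nearest control at 202.0, and Asxl2 was at 137.4 CPM, with the nearest at 119.5. Pbrm1 was lowest in control library 3, at 111.7 CPM, with the nearest control at 139.4. The AML1/ETO group, with 3 libraries, was too small for this test.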

How the results depend on the processing

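Over 16 alternatives Ezh1, Cbx7 and Smarcd1 were called in all, Smarcc1 in 15, Suz12 in 13 and Cbx2 in 6, and no called member changed direction. Cbx2 was lost with DESeq2 size factors (adjusted p = 0.05), no filter (0.0696) and limma-voom (0.104), and in the settings given above. The cause of these changes was not tested. Members called were 4 risen with DESeq2 and 9 fallen with library totals alone, and with 1 library left out 2 to 4 risen and 2 to 6 fallen. By complex, library totals alone gave 2 fallen in PRC2, 2 in PRC1, 1 in PR-DUB and 1 in MLL/COMPASS. In PRC1, DESeq2 gave 2 risen, and 0 fell with DESeq2 size factors, no filter or without both first libraries. In PR-DUB 1 rose with DESeq2 size factors, the 1 CPM filter or DESeq2. In MLL/COMPASS 1 fell with limma-voom and without both first libraries. With 1 library left out, fallen members ranged from 0 to 1 in PRC2, PRC1 and MLL/COMPASS, and risen members from 0 to 1 in PR-DUB, MLL/COMPASS and SWI/SNF.

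The replicate numbers in the labels are not said to pair the libraries, and over all genes the deviations of same-numbered libraries from their group means had correlations of 0.039, -0.039 and 0.027, below the 0.1 set for pairing. Among the 44 members both libraries numbered 1 did deviate alike: the Spearman rho of their excess over the rest of their group was 0.515. With the replicate number as a block, 951 genes rose and 1098 fell over the whole table, against 1734 and 2128. Control libraries 4 and 5 have no AML1/ETO library of the same number, so in that fit they add nothing to the comparison. The part of this in the lost calls was not tested. Among the members 2 rose and 1 fell, with 0 fallen in PRC2, 0 in PRC1 and 1 in SWI/SNF.

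The 6 pair ratios without overlap kept their direction under other pseudocounts, within shared numbers and with each library left out, with Cbx7/Cbx2 at 2.71 to 3.30. Intervals reached beyond a 2-fold change for Smarcd3 and Cbx8, which had under 100 reads in several libraries, and for Pcgf1 and Pcgf6. The same held for Phc1, with 289 to 1454 reads a library, and for Kmt2d, Kmt2e and Dot1l, with 2735 to 23934. The part of depth was not tested.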
